A study of Rattus norvegicus with 33 samples.

Results

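The late plasma response to 4,4'-methylenedianiline (MDA) was described from 3 small RNA libraries of rat plasma, taken 24 h and 48 h after dosing and from rats given the vehicle. MDA rats received 250 mg/kg by gavage in 0.5% carboxymethylcellulose, and vehicle rats received that solvent alone. All were male Sprague-Dawley rats, 6 weeks old when obtained, with 5 rats per group. The sources used here do not say whether a library holds 1 rat or a pool of the group, and each group has 1 library. These are 3 of the 29 distinct libraries in the series, which has 33 labelled samples. The miRNAs described are the 85 of 326 in the deposited MDA table that had at least 20 reads in at least 1 of the 3 libraries. The minimum was reached by 82 of the 85 in the 24 h library, by 63 in the 48 h library and by 47 in the vehicle library, and 16 reached it only at 24 h. Members at the edge include miR-125b-2-3p with 20, 9 and 4 reads at 24 h, at 48 h and in vehicle, while miR-195-3p with 19, 7 and 3 reads fell just outside.

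MDA is an aromatic diamine that injures the bile duct epithelium of rats and causes cholestasis, and hepatocytes are damaged as well. MicroRNAs are short RNAs that repress messenger RNAs matching their seed, bases 2 to 8. Dying cells release them into plasma, where hepatocyte miR-122-5p is a marker of liver injury and miR-451-5p and miR-486 come mostly from red cells. In plasma, fewer cells of a type and less RNA per cell cannot be told apart, and a share of reads is not a concentration.

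Mature sequences were taken from RefSeq (build GRCr8), which matched 73 of the 85 miRNAs. Capitals mark the seed. The first set shows the hepatocyte miRNA that dominated the plasma of MDA rats and 4 others that were higher.
miR-122-5p: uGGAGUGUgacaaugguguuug
miR-378a-3p: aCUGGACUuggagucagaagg
miR-22-3p: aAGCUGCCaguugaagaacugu
miR-423-5p: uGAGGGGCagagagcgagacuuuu
miR-182: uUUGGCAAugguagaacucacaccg
The second set shows pairs that share a seed but did not keep the same proportion to each other in MDA plasma.
miR-192-5p: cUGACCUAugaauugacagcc
miR-215: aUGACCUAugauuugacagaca
miR-101b-3p: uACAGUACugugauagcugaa
miR-101a-3p: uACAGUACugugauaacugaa
miR-148a-3p: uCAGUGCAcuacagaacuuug
miR-152-3p: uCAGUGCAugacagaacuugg
The third set shows the arms of 2 hairpins, the 3p arm of each being the one that was higher.
let-7d-3p: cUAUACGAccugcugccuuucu
let-7d-5p: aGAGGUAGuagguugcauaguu
miR-30a-3p: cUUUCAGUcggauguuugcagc
miR-30a-5p: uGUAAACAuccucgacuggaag
Counted from 1 at the 5′ end, miR-101a-3p and miR-101b-3p differ by A16G alone, and miR-192-5p and miR-215 by C1A, A12U and C20A over their first 21 bases. The sources used here do not say how the authors' counting split reads between such close copies, so values of these pairs are uncertain to that extent. miR-122-5p lies at chr18:61028831-61028852 on the plus strand. miR-192-5p lies at chr1:212994232-212994252 beside a copy of miR-194-5p at chr1:212994038-212994059, and miR-215 at chr13:99383003-99383024 beside the other copy of miR-194-5p at chr13:99382730-99382751.

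The 24 h library held 174669 miRNA reads, the 48 h library 63635 and the MDA vehicle library 14176, so that 1 read was 0.000573%, 0.00157% and 0.00705% of a library. Because the MDA vehicle is shallow and stands alone, the vehicle libraries of the other experiments were used beside it. These are the vehicles of acetaminophen (APAP, after a fast, 47122 reads) and thioacetamide (TAA, 33064 reads), in carboxymethylcellulose, and those of α-naphthylisothiocyanate (ANIT, 50319 reads) and of carbon tetrachloride and dexamethasone (CCl4/DEX, 1 shared library of 225741 reads), in corn oil. By the rule of size used for single libraries (a 2-fold change or more either way, with an exact 95% counting interval that excludes 1), 8 of 85 miRNAs differed between the APAP and MDA vehicles (9.41%), 16 for the TAA vehicle (18.8%), 10 for the ANIT vehicle (11.8%) and 11 for the CCl4/DEX vehicle (12.9%). Intervals cover counting error only.

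Plasma at 24 h and 48 h was dominated by miR-122-5p. It took 58.4% of miRNA reads at 24 h (exact 95% interval 58.1% to 58.6%) and 46.7% at 48 h (46.3% to 47.1%), against 3.34% in MDA vehicle (3.05% to 3.65%) and 0.647% to 2.80% in the other 4 vehicle libraries. miR-148a-3p, abundant in liver and in many other tissues, took 21.5% at 24 h and 25.3% at 48 h, against 34.5% in MDA vehicle. Without the miR-122-5p reads it made up 51.5% of the rest at 24 h and 47.6% at 48 h, against 35.7%, 30.5%, 36.8%, 33.3% and 37.7% in the MDA, APAP, TAA, ANIT and CCl4/DEX vehicles. Both MDA values are above all 5 vehicle values. miR-192-5p came to 2.64% and 2.55% and miR-378a-3p to 2.23% and 3.60% of all reads at 24 h and 48 h. The 10 most abundant miRNAs held 91.5% of reads at 24 h and 86.8% at 48 h, against 76.7% in MDA vehicle. The summed share of the 10 let-7 family miRNAs was 2.63% at 24 h and 2.98% at 48 h, against 9.34% to 19.4% in the vehicle libraries.

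**Figure D1:**
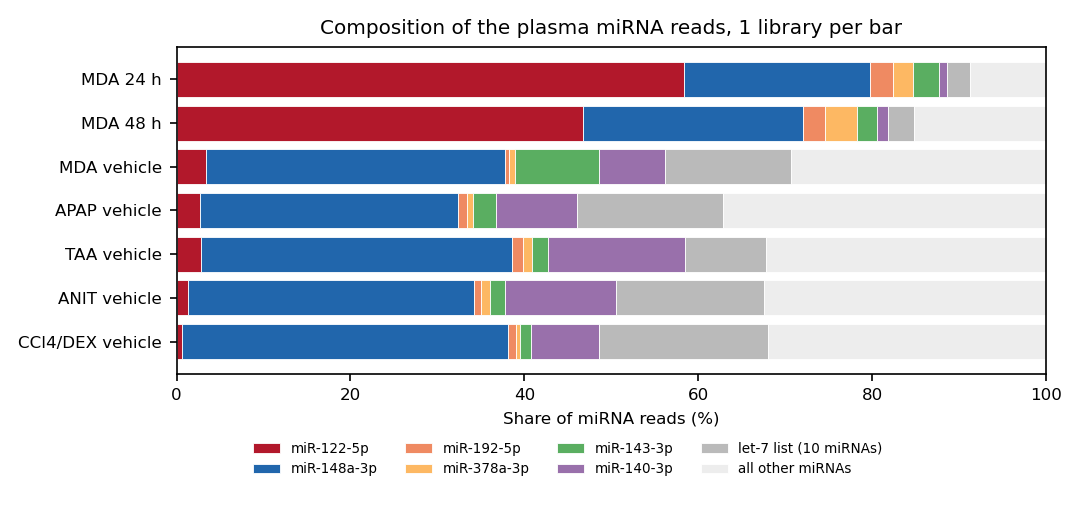
Share of miRNA reads (%) taken by 6 miRNAs, by the 10 let-7 miRNAs and by all others, with 1 library per bar and the MDA libraries on top. miR-122-5p fills 58.4% and 46.7% of the MDA 24 h and 48 h bars and at most 3.34% of the 5 vehicle bars.

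With so large a share in 1 miRNA, the choice of scaling sets the direction of many others. Normalised reads below are counts scaled by 1 trimmed mean of M-values (TMM) over the 2 MDA and 5 vehicle libraries. Total counts instead lower every log2 ratio to MDA vehicle by 2.16 at 24 h and 1.24 at 48 h. The labels mention no spike-in, and which scaling is nearer to the concentrations cannot be told apart here. Changes were tested with edgeR's quasi-likelihood test against the 5 vehicle libraries, which stand in for replicates. Its p-values set 1 MDA library against the spread of 5 vehicle libraries, 4 of them from other experiments. Of the 85 miRNAs, 82 entered that fit among 110 tested.

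At 24 h, 24 of 110 miRNAs were higher than in the vehicle libraries (21.8%) and 6 were lower (5.45%) by edgeR at a Benjamini-Hochberg adjusted p under 0.05. At 48 h, 21 were higher (19.1%) and 11 were lower (10%). Of the calls, 23 higher and 2 lower at 24 h and 20 higher and 8 lower at 48 h were among the 85. All 21 miRNAs higher at 48 h were among the 24 higher at 24 h, 87.5% of that list, and the MDA libraries were set against the same vehicles. miR-16-5p and miR-150-5p were lower at both times. With total counts the split was 5 higher and 76 lower at 24 h and 11 higher and 60 lower at 48 h. The 5 that remained higher at 24 h under every setting run were miR-122-5p, miR-192-5p, miR-378a-3p, miR-101b-3p and miR-3559-3p. At 48 h the 11 were these 5 with miR-22-3p, miR-423-5p, miR-182, miR-183-5p, let-7d-3p and miR-125a-5p. miR-3559-3p and miR-125a-5p could be run in 8 of the 10 alternatives. These 2 and miR-674-3p were under 10 reads in at least 3 of the 5 vehicle libraries and entered the fit through their reads in MDA plasma, so a call of them lends nothing to the counts.

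By the rule of size against the MDA vehicle alone, 30 of 85 were higher (35.3%) and 9 were lower (10.6%) at 24 h, 39 in all (45.9%). At 48 h, 28 were higher (32.9%) and 21 lower (24.7%), 49 in all (57.6%). Set against each of the 5 vehicle libraries in turn, 24 of 85 miRNAs at 24 h and 17 at 48 h were higher than in all 5 by size. Lower than in all 5 were 4 at 24 h and 9 at 48 h. With total counts 3 and 6 were higher and 42 and 32 were lower. The 85 were chosen by their reads in the MDA 24 h, 48 h and vehicle libraries, which are the libraries compared. Of them, 38 did not reach the read minimum in MDA vehicle, and 16 reached it only at 24 h. Such a choice favours higher calls over lower ones, so no conclusion is drawn from the balance between them.

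**Figure D2:**
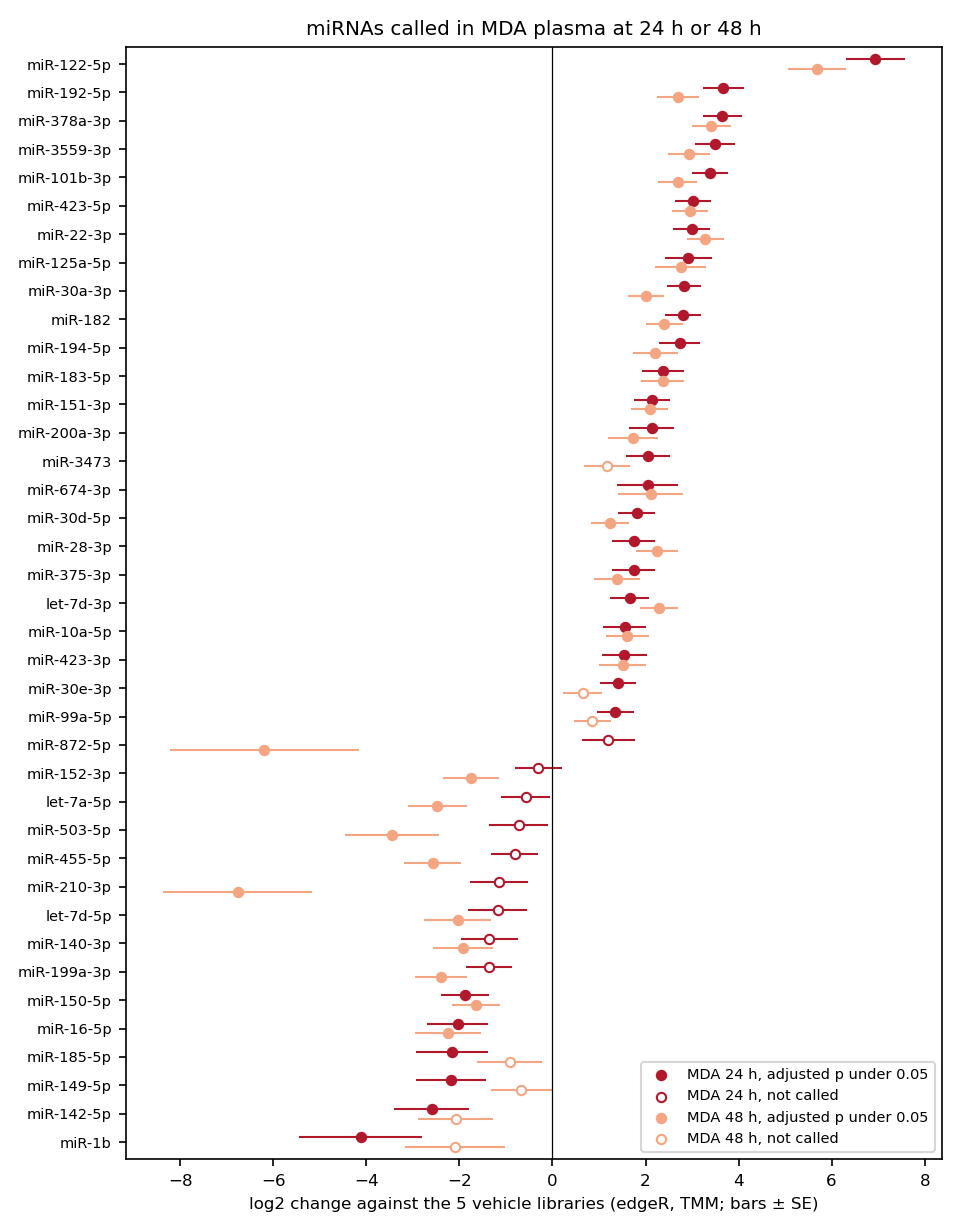
The log2 change against the 5 vehicle libraries (edgeR, TMM) with its SE as bars, for each miRNA called at 24 h (dark red) or 48 h (orange); filled points have an adjusted p under 0.05. miR-122-5p lies farthest to the right at 6.94 and 5.69, and the points of miR-210-3p and miR-872-5p at 48 h are fitted values of miRNAs with 0 reads there.

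miR-122-5p had the largest rise of the miRNAs tested at both times, and 2 other liver-enriched miRNAs rose with it. It had 110222 normalised reads at 24 h and 46454 at 48 h, against 1409, 1071, 1137, 572 and 316 in the MDA, APAP, TAA, ANIT and CCl4/DEX vehicles. No vehicle came near either MDA library. The log2 change was 6.94 ± 0.64 at 24 h (SE, edgeR adjusted p = 2.27e-06) and 5.69 ± 0.62 at 48 h (adjusted p = 2.17e-05). With total counts these were 4.76 and 4.44, still called. The other arm of its hairpin, miR-122-3p, had 18 reads at 24 h, 6 at 48 h, 2 in the CCl4/DEX vehicle and 0 in the other 4 vehicles.

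miR-192-5p, made in liver and intestine, had 4991 normalised reads at 24 h and 2539 at 48 h, against 188, 409, 524, 388 and 437 in the MDA, APAP, TAA, ANIT and CCl4/DEX vehicles. It rose by a log2 change of 3.67 ± 0.44 at 24 h (edgeR adjusted p = 1.80e-05) and 2.70 ± 0.46 at 48 h (adjusted p = 0.000431). miR-194-5p, transcribed with miR-192 and with miR-215, had 89.8 and 62.5 normalised reads at 24 h and 48 h, against 8.94 to 19.6 in the vehicles. Its log2 changes were 2.73 ± 0.45 (adjusted p = 0.000256) and 2.21 ± 0.48 (adjusted p = 0.00285), and both calls were lost with total counts. The remaining measured miRNA of the liver-enriched list, miR-215, was not called, at −1.40 ± 0.52 (adjusted p = 0.0567) and −1.09 ± 0.51 (adjusted p = 0.109). It had 518 and 645 normalised reads at 24 h and 48 h, against 1055, 1286, 1381, 1791 and 1342 in the vehicles, below each of them. Outside edgeR it was called. By size miR-215 was lower than in all 5 vehicles at 24 h and than in 3 of 5 at 48 h. DESeq2 called it lower at 24 h. Thus 3 of 4 measured members of the list rose at each time, beside 21.8% and 19.1% of all tested at 24 h and 48 h. The median log2 change of the 4 was 3.20 at 24 h and 2.46 at 48 h, beside −0.18 and −0.39 over all tested, and 1.08 and 1.25 with total counts.

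The proportion of miR-192-5p to miR-215, which no scaling can alter, was 9.63 at 24 h and 3.93 at 48 h. In the MDA, APAP, TAA, ANIT and CCl4/DEX vehicles it was 0.178, 0.318, 0.379, 0.217 and 0.326. So miR-215 reads outnumbered miR-192-5p reads in all 5 vehicle libraries, and miR-192-5p outnumbered miR-215 in both MDA libraries. miR-192-5p to miR-194-5p was 55.6 and 40.6, against 21.0 to 38.9 in the vehicles, and rests on 3 miR-194-5p reads in MDA vehicle. miR-122-5p to miR-192-5p was 22.1 and 18.3, against 7.51 in MDA vehicle and 0.723 to 2.62 in the other vehicles. These proportions have no test, with 1 library at each time.

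Among 9 tested miRNAs that are abundant in liver but broadly expressed, 4 rose at 24 h and 3 at 48 h, beside 21.8% and 19.1% of all tested. Their median log2 change was 1.35 and 0.77 with TMM but −0.79 and −0.42 with total counts. miR-378a-3p, processed from an intron of the Ppargc1b gene, had 4216 normalised reads at 24 h and 3583 at 48 h, against 289, 262, 395, 483 and 255 in the MDA, APAP, TAA, ANIT and CCl4/DEX vehicles. Its log2 changes were 3.64 ± 0.42 (edgeR adjusted p = 1.43e-05) and 3.41 ± 0.42 (adjusted p = 3.24e-05). miR-22-3p had 709 and 872 normalised reads, against 50.7, 74.8, 106, 127 and 82.9 in those vehicles, and rose by 2.99 ± 0.40 and 3.29 ± 0.40 (adjusted p = 3.68e-05 and 3.24e-05). At 24 h its call was lost with total counts (0.86). The fourth at 24 h was miR-99a-5p, at 1.35 ± 0.39 with TMM (adjusted p = 0.0169) and −0.79 with total counts. Its call was also lost with the 3 carboxymethylcellulose vehicles alone and without the APAP vehicle. miR-148a-3p, at 1.46 ± 0.54 and 0.77 ± 0.56, did not pass (adjusted p = 0.0558 and 0.280).

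miR-101b-3p and miR-101a-3p, which carry the same seed, had unlike values. miR-101b-3p had 315 normalised reads at 24 h and 194 at 48 h, against 26.8, 23.5, 22.1, 32.9 and 40.9 in the MDA, APAP, TAA, ANIT and CCl4/DEX vehicles, and rose by 3.39 ± 0.39 and 2.69 ± 0.41 (edgeR adjusted p = 1.43e-05 and 0.000230). miR-101a-3p had 24.9 and 37.5 normalised reads, against 14.9, 21.9, 19.6, 24.9 and 25.5, and was not called (0.17 ± 0.52 and 0.76 ± 0.50, adjusted p = 0.810 and 0.238). Their proportion was 12.7 and 5.17 in the MDA libraries, against 1.08 to 1.80 in the 5 vehicles. In a like manner miR-148a-3p to miR-152-3p was 735 and 1240, against 148 to 259, and miR-152-3p fell at 48 h (−1.74 ± 0.60, adjusted p = 0.0425). That call for miR-152-3p was lost without any 1 of the MDA, APAP, ANIT and CCl4/DEX vehicles. It was also lost with DESeq2's size factors and with the 3 carboxymethylcellulose vehicles alone.

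**Figure D3:**
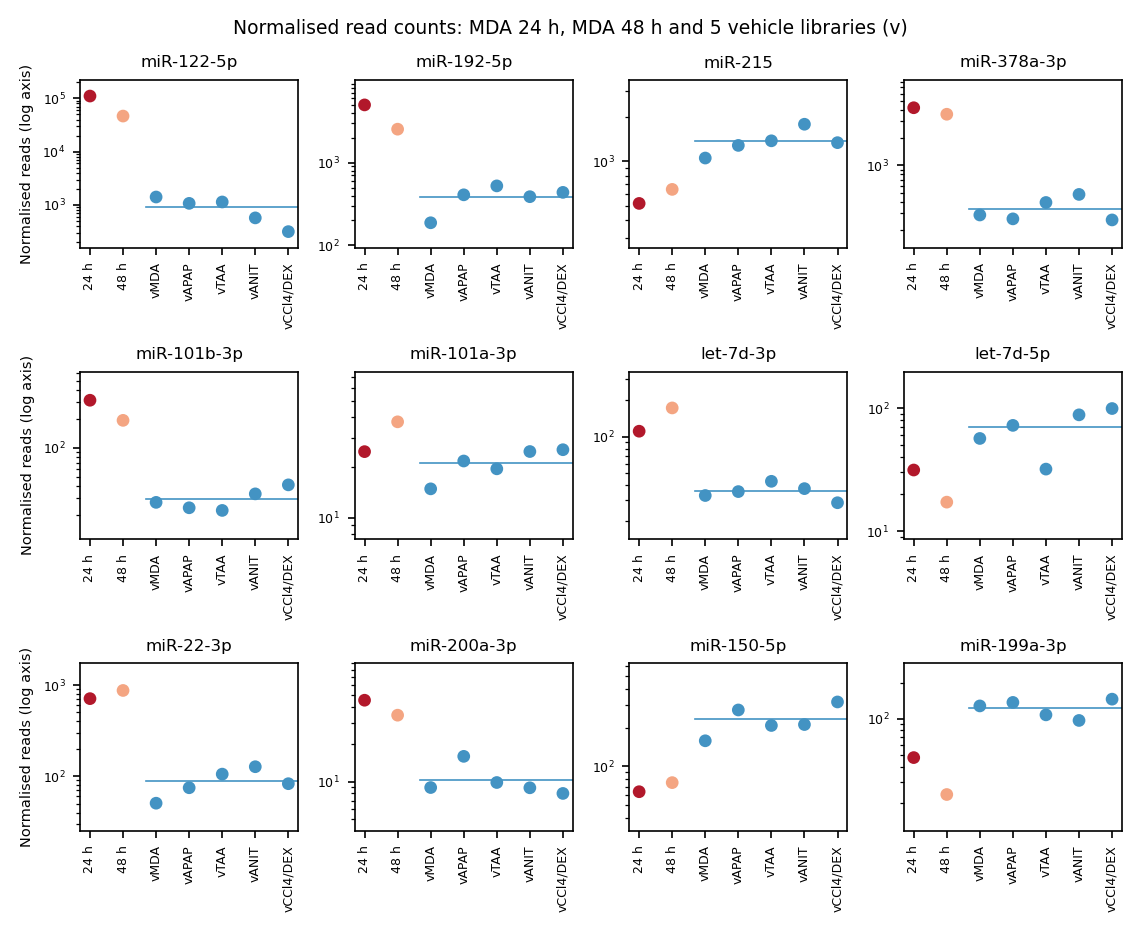
Normalised reads (log axis) of 12 miRNAs in the MDA 24 h (dark red), MDA 48 h (orange) and 5 vehicle libraries (blue), 1 library per point; the blue line is the vehicle mean. miR-192-5p and miR-101b-3p stand above every vehicle point, while miR-215 lies below and the 24 h value of miR-101a-3p within the vehicle points.

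Several miRNAs of broader or less well known origin rose at both times. miR-423-5p had 250 and 238 normalised reads at 24 h and 48 h, against 29.8, 31.1, 29.4, 40.9 and 22.7 in the MDA, APAP, TAA, ANIT and CCl4/DEX vehicles (log2 change 3.03 ± 0.39 and 2.95 ± 0.39, edgeR adjusted p = 2.54e-05 and 6.13e-05). miR-3559-3p had 96.2 and 65.6, against 5.96 to 10.2 in the vehicles (3.49 ± 0.43 and 2.94 ± 0.46). It entered the fit through its reads in MDA plasma, so no p-value is given for it. miR-182 and miR-183-5p, made from 1 cluster that is active in epithelial and sensory cells, both rose at each time. miR-182 had 222 and 169 normalised reads, against 41.7, 36.2, 28.2, 29.4 and 27.3 in those vehicles (2.80 ± 0.39 and 2.40 ± 0.40, adjusted p = 4.24e-05 and 0.000431). miR-183-5p stood at 72.5 and 71.9, against 9.82 to 16.8 in the vehicles. With total counts miR-182, miR-183-5p and miR-423-5p were called at 48 h only, and the 24 h log2 change of miR-423-5p was 0.90. The islet and gut endocrine miRNA miR-375-3p was higher by 1.74 ± 0.47 and 1.38 ± 0.50 (adjusted p = 0.0120 and 0.0498), but at −0.38 with total counts at 24 h. Its 48 h call was lost with total counts, with DESeq2's test, with no filter on low counts and without the MDA or the APAP vehicle. The list of pancreas and gut miRNAs did not rise with it. With TMM the median log2 change of the 3 tested was −0.50 at 24 h and −1.09 at 48 h, beside −0.18 and −0.39 over all tested.

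The proportion of 3p to 5p arms left the vehicle range for several hairpins. let-7d-3p had 111 normalised reads at 24 h and 173 at 48 h, against 32.8, 35.3, 42.9, 37.4 and 28.6 in the MDA, APAP, TAA, ANIT and CCl4/DEX vehicles. It rose by 1.66 ± 0.42 and 2.30 ± 0.41 (edgeR adjusted p = 0.00846 and 0.000619), although the 24 h change was −0.48 with total counts. let-7d-5p, of the let-7 seed family, had 31.4 and 17.2, against 56.6, 72.3, 31.9, 88.1 and 99.1, and fell at 48 h (−2.04 ± 0.72, adjusted p = 0.0466). That call was lost with DESeq2's size factors, with the 3 carboxymethylcellulose vehicles alone and without the APAP, ANIT or CCl4/DEX vehicle. The proportion of let-7d-3p to let-7d-5p was 3.55 and 10.1, with 103 and 29 reads at 24 h and 111 and 11 reads at 48 h, against 0.579, 0.488, 1.35, 0.424 and 0.288 in the vehicles. miR-30a-3p to miR-30a-5p was 0.498 and 0.353, against 0.0619 to 0.129, and miR-30e-3p to miR-30e-5p was 10.1 and 5.35, against 1.24 to 3.92. miR-423-3p to miR-423-5p went below the vehicle range, at 0.437 and 0.447 against 0.600 to 1.88. Of 7 hairpins with both arms measured, 3 proportions lay above and 2 below the range of the 5 vehicles at 24 h, and 4 above and 1 below at 48 h. Among them miR-140 at 24 h was close to the range, at 56.9 against a lowest vehicle of 60.0. miR-455 at 48 h, 0.615 against at most 0.420, rests on 8 and 13 reads. The counts have no test and no background beside them, so no conclusion is drawn from them.

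miRNAs of epithelial cells, a list of 10, were few in number of reads at these times, and 2 of them entered the edgeR fit. miR-200a-3p had 42 reads at 24 h, 22 at 48 h and 3 in MDA vehicle. In normalised reads that was 45.4 and 34.4, against 8.94, 15.975, 9.815, 8.90 and 8.01 in the MDA, APAP, TAA, ANIT and CCl4/DEX vehicles, above all 5. It rose by 2.13 ± 0.48 at 24 h (edgeR adjusted p = 0.00367) and 1.73 ± 0.53 at 48 h (adjusted p = 0.0258). The 48 h call was lost with the 3 carboxymethylcellulose vehicles alone. With total counts the changes were 0.01 and 0.53, both not called, and its share of reads, 0.0240% and 0.0346%, lay within the vehicle range of 0.0164% to 0.0403%. miR-200b-3p had 8 reads at each time, or 8.65 and 12.5 normalised reads at 24 h and 48 h, against 2.45 to 5.04 in the vehicles. miR-203b-3p, under the read minimum of the fit, had 23 and 11 reads. In normalised reads that was 24.9 and 17.2, against 0.841 to 2.98 in the vehicles. By size it was higher than all 5 vehicles at 24 h and than 4 of 5 at 48 h. With total counts it was higher than 2 of 5 at each time. It was among the miRNAs compared by size only through its 24 h reads, with 1 read in MDA vehicle. Such a choice favours a higher call, so no conclusion is drawn from its calls by size. miR-200a-3p, miR-200b-3p and miR-203b-3p lay above every vehicle in normalised reads, on few reads. For miR-200b-3p, as for miR-200a-3p, this depended on the scaling. As a share of all reads miR-200b-3p was below all 5 vehicles at 24 h and within their range at 48 h. miR-203a-3p, found mostly in skin and other squamous epithelia, had 20.5 and 9.38 normalised reads, against 17.9 to 67.5, and was not called. miR-429 had 4 and 1, miR-200c-3p had 1 and 0, and miR-141-3p had 0 at both. Summed over the list, the share was 0.0578% at 24 h and 0.0801% at 48 h, against 0.0740% to 0.221% in the vehicles. Without miR-203a-3p, left out after its values were seen, it was 0.0469% and 0.0707%, against 0.0341% to 0.0679%. Because that choice was made on the values, no conclusion is drawn from it.

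Among 9 tested leukocyte and 5 tested red cell miRNAs, miR-150-5p, miR-142-5p and miR-16-5p fell by edgeR at 24 h or 48 h. Of all tested, 5.45% were lower at 24 h and 10% at 48 h. miR-150-5p of lymphocytes had 63.8 normalised reads at 24 h and 75.0 at 48 h, against 158, 273, 207, 211 and 315 in the MDA, APAP, TAA, ANIT and CCl4/DEX vehicles. It fell by 1.88 ± 0.52 at 24 h (edgeR adjusted p = 0.0148), in every setting run, and by 1.64 ± 0.52 at 48 h (adjusted p = 0.0306). The 48 h call was lost with the 3 carboxymethylcellulose vehicles alone and without the APAP, ANIT or CCl4/DEX vehicle. Among 9 tested leukocyte miRNAs, miR-150-5p and miR-142-5p fell at 24 h and miR-150-5p at 48 h, beside 5.45% and 10% of all tested, so that the 48 h count is near the background. miR-142-5p rests on 2 reads in each MDA library. Its 24 h call was lost with DESeq2's test, with no filter on low counts and without the APAP or CCl4/DEX vehicle. The broadly expressed and red cell miR-16-5p had 10 and 6 reads in the MDA libraries, or 10.8 and 9.38 normalised reads, against 62.6, 41.2, 29.4, 50.7 and 43.7 in those vehicles. It fell by 2.04 ± 0.65 and 2.24 ± 0.70 (adjusted p = 0.0279 and 0.0288). Both calls were lost with the 3 carboxymethylcellulose vehicles alone and without the ANIT vehicle, the 48 h call also without CCl4/DEX. The red cell markers miR-451-5p and miR-486 were not called at either time, with adjusted p from 0.0924 to 0.952. The summed share of the 8 red cell miRNAs was 1.40% at 24 h and 4.03% at 48 h, against 4.67% to 9.20% in the vehicles. With TMM the median log2 change of the 5 tested was −0.75 and 0.17. By size against MDA vehicle, miR-25-3p was higher and miR-16-5p lower at 24 h, beside 35.3% higher and 10.6% lower over the 85. At 48 h miR-486, miR-25-3p and miR-92a-3p were higher and miR-16-5p lower, beside 32.9% and 24.7%. The summed share of the 8 platelet and endothelial miRNAs was 0.704% and 1.08%, against 3.36% to 4.52%. These shares are of all reads, miR-122-5p included. Among reads other than miR-122-5p, red cell miR-16-5p was below all 5 vehicles at both times, and miR-451-5p and miR-486 at 24 h. miR-25-3p and miR-92a-3p were not. Platelet and endothelial miR-126a-3p, miR-191a-5p, miR-23a-3p and miR-27a-3p were below all 5 at both times, and miR-24-3p was inside their range. The cause was not tested. With TMM the median log2 change of the 6 tested platelet and endothelial miRNAs was −0.35 and −0.94, beside −0.18 and −0.39 over all tested. By edgeR 0 of these 6 were called at either time, with 1 at an unadjusted p under 0.05 at each. DESeq2 called miR-23a-3p lower at 24 h and 0 at 48 h.

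The other falls were mostly at 48 h. miR-199a-3p of mesenchymal cells had 47.6 normalised reads at 24 h and 23.4 at 48 h, against 128, 137, 108, 97.0 and 146 in the MDA, APAP, TAA, ANIT and CCl4/DEX vehicles. It fell by 2.39 ± 0.56 at 48 h (edgeR adjusted p = 0.00483) and was at −1.37 ± 0.49 at 24 h (adjusted p = 0.0507). miR-455-5p, known from cartilage and brown fat, had 69.2 and 20.3 normalised reads, against 149, 89.96, 161, 94.3 and 119, and fell by 2.58 ± 0.61 at 48 h (adjusted p = 0.00483). These 2 calls held in every setting run. The fall of miR-199a-3p was not that of its list. With TMM the median log2 change of the 5 tested mesenchymal and stellate miRNAs was 0.79 at 24 h and 0.73 at 48 h. Over all tested it was −0.18 and −0.39. With total counts the median of the list was −1.34 and −0.50. let-7a-5p fell by 2.47 ± 0.64 at 48 h (adjusted p = 0.00868), a call lost with the 3 carboxymethylcellulose vehicles alone. Among 9 tested let-7 miRNAs, let-7a-5p and let-7d-5p fell and let-7d-3p rose at 48 h, while 10% of all tested fell. The median log2 change of the 9 was −1.55, beside −0.39 over all tested. By size against MDA vehicle, 5 of 8 let-7 miRNAs were lower at 48 h and 1 was higher, beside 24.7% lower over the 85. miR-140-3p, abundant in cartilage and plasma, had 1784 and 1200 normalised reads, against 3218, 3693, 6401, 5690 and 3815, and fell at 48 h by 1.93 ± 0.64 (adjusted p = 0.0350). This call was lost with DESeq2's size factors, with the 3 carboxymethylcellulose vehicles alone and without the APAP or ANIT vehicle. miR-210-3p, induced by hypoxia, had 0 reads at 48 h and was at least 2.07-fold lower than the mean of the vehicles, with 3 reads put in place of 0. Its call was lost with DESeq2's test. miR-872-5p, also at 0 reads, was at least 1.27-fold lower, and its call was lost with DESeq2's test, with no filter on low counts and without the APAP vehicle. The muscle miRNA miR-1b fell at 24 h, on 1 read (−4.12 ± 1.32, adjusted p = 0.0279).

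For miR-143-3p of smooth muscle the vehicle libraries differed widely among themselves. It had 5714 normalised reads at 24 h and 2392 at 48 h, against 4046 in MDA vehicle and 1052, 770.5, 756 and 613 in the APAP, TAA, ANIT and CCl4/DEX vehicles. The 24 h value is above all vehicles and the 48 h value below the MDA vehicle. It was not called by edgeR (1.99 ± 0.74 and 0.73 ± 0.80, adjusted p = 0.0559 and 0.479). Its share in MDA vehicle, 9.58% from 1358 reads (exact 95% interval 9.10% to 10.1%), was above the 3.03% and 2.41% of the 24 h and 48 h libraries.

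Between the late times no miRNA passed the edgeR test, while 14 of 85 passed the rule of size (16.5%). By edgeR, 0 of 110 were higher and 0 lower at 48 h than at 24 h (0%), with 6 at an unadjusted p under 0.05 and 0 by DESeq2. By the rule of size, 1 of 85 was higher (1.18%) and 13 were lower (15.3%). The read minimum by which the 85 were chosen was reached by 82 at 24 h and 63 at 48 h, which favours lower calls here. The one higher was miR-451-5p, with 114 reads at 48 h and 75 at 24 h, a ratio of 2.20 (95% counting interval 1.63 to 2.98). miR-122-5p had a ratio of 0.421 (0.416 to 0.427), miR-143-3p 0.419 (0.395 to 0.443) and the injury-associated miR-21-5p 0.422 (0.343 to 0.516). let-7a-5p had the ratio of 0.268 (0.172 to 0.403), from 28 reads at 48 h and 151 at 24 h. These 13 calls do not hold under total counts, where 0 were lower and 17 higher, since that scaling raises every log2 ratio by 0.93. The median log2 ratio of the 85 was −0.50 with TMM and 0.43 with total counts. miR-23a-3p to miR-451-5p, a proportion used to gauge red cell lysis, was 1.45 at 48 h and 2.57 at 24 h, against 2.61, 3.58, 3.43, 2.25 and 2.18 in the MDA, APAP, TAA, ANIT and CCl4/DEX vehicles. The part of red cell RNA in the miR-451-5p value was not tested.

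**Figure D4:**
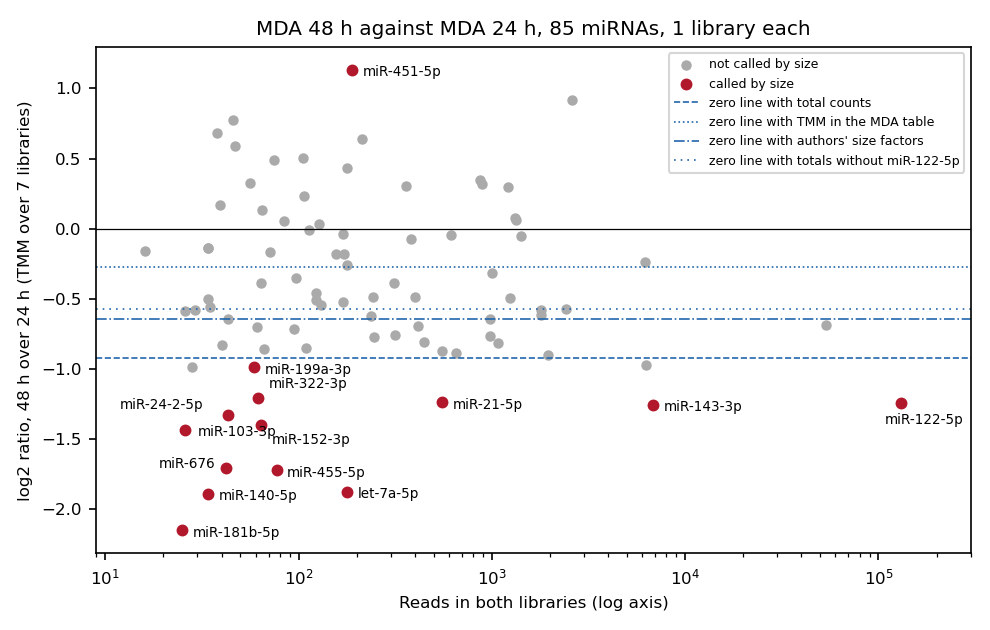
The log2 ratio of normalised reads, 48 h over 24 h, against the reads of both libraries (log axis) for 85 miRNAs, 1 library at each time. Red points pass the rule of size, 13 lower and miR-451-5p higher; broken blue lines show where a ratio of 1 falls under the other scalings.

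ANIT, another compound that injures bile ducts, was given at 150 mg/kg in corn oil and sampled at the same times, so its dose and solvent differ from those of MDA. At 24 h, 0 of 121 miRNAs were higher in MDA than in ANIT plasma (0%) and 1 was lower (0.826%), with 19 at an unadjusted p under 0.05 and 4 higher and 2 lower by DESeq2. The 1 lower was miR-200a-3p, with 42 reads in MDA and 1490 in ANIT at 24 h, or 0.0240% and 0.962% of reads (log2 difference −4.25 ± 0.77, edgeR adjusted p = 0.00254). It was called in all 7 alternatives, with log2 differences from −5.31 to −3.90. At 48 h, where miR-200a-3p had 22 reads in MDA and 34 in ANIT, 0 of 121 were called in either direction (0%) by edgeR and by DESeq2, with 13 at an unadjusted p under 0.05. miR-122-5p took 58.4% of reads in MDA and 35.4% in ANIT at 24 h, and 46.7% in MDA and 49.96% in ANIT at 48 h. Its log2 differences of 1.79 ± 1.13 and −0.45 ± 1.10 were not called (adjusted p = 0.512 and 0.933). miR-192-5p took 2.64% in MDA and 4.26% in ANIT at 24 h, and 2.55% in MDA and 9.05% in ANIT at 48 h, where its log2 difference was −2.18 ± 0.89 (adjusted p = 0.358).

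Within the MDA time course the 2 late libraries had the 2 highest shares of miR-122-5p. Its share was 3.34% in vehicle and 11.4%, 28.3%, 33.9%, 58.4% and 46.7% at 3, 6, 12, 24 and 48 h. The miR-192-5p share was 0.444% in vehicle and 1.06%, 2.903%, 2.96%, 2.64% and 2.55% at those times. The miR-200a-3p share went otherwise, at 0.0212% in vehicle and 0.762%, 0.352%, 0.240%, 0.0240% and 0.0346%. That of miR-451-5p was 0.346% in vehicle and 0.0851%, 0.0260%, 0.0304%, 0.0429% and 0.179%, lowest at 6 h. The proportion of miR-192-5p to miR-215 was 0.178 in vehicle and 2.22, 4.68, 8.21, 9.63 and 3.93. That of miR-30a-3p to miR-30a-5p was 0.0783, 0.103 and 0.0848 at 3, 6 and 12 h, inside the vehicle range of 0.0619 to 0.129. In MDA plasma the 24 h and 48 h libraries were above that range, and in ANIT plasma it was 0.106 at 24 h, inside the range, and 0.207 at 48 h, above it.

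**Figure D5:**
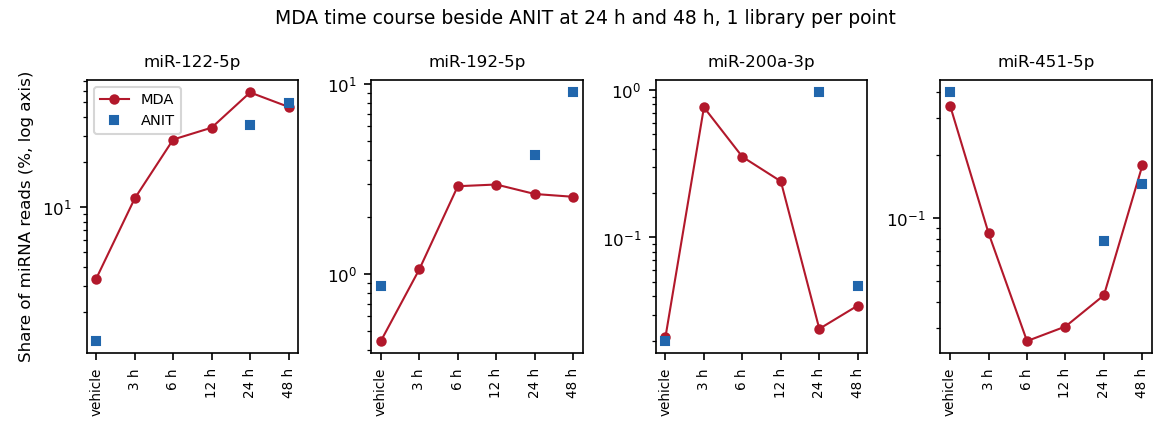
Share of miRNA reads (%, log axis) of 4 miRNAs in the MDA libraries from vehicle to 48 h (red, joined) and in ANIT vehicle, 24 h and 48 h (blue squares), 1 library per point. miR-200a-3p stands at 0.0240% in MDA and 0.962% in ANIT at 24 h.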

How the data were processed

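Small RNA was sequenced from 200 µL of rat plasma, per the labels' protocols. The deposited tables hold raw read counts per mature miRNA, and the authors also deposited a normalised signal, made with DESeq 1.28.0 per the submitters' processing notes. Of 348 signal values of the MDA libraries used, 17.24% lay over 0.5 read away from a rescaled count, and tests were run on counts. The sources used here do not give the aligner, miRNA release or build. The CCl4 and DEX vehicle columns have the same total, and the 36 miRNAs that differ do so by 4 reads or fewer, so they were counted as 1 library. The ANIT vehicle, 24 h and 48 h groups each have 2 labelled samples but 1 column, and whether it is a sum is not stated.

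Counts were scaled by TMM and tested with edgeR 4.0.16 (R 4.3.3, quasi-likelihood, Benjamini-Hochberg) on miRNAs that reached 10 reads in 3 or more of 7 libraries, 5 of them vehicles; the lone MDA library is assumed to vary like the vehicles. The comparison with ANIT used 9 libraries. P-values measure spread between these libraries, which may be technical. Ratios of single libraries have exact binomial intervals, log2 ratios a pseudocount of 0.5 read, and 3 reads stand for a 0. A share of 0 reads thus allows up to 0.00172% at 24 h, 0.00471% at 48 h and 0.0212% in MDA vehicle. Alternatives were 4 other scalings, DESeq2 1.42.0, other read minimums, the 3 carboxymethylcellulose vehicles alone and leaving out each vehicle. miRNAs could be named if called, if among the 10 most abundant, or if on a list of cell type or family miRNAs. The members and lists were chosen with earlier results of these data known. Sequences of miR-200a-3p, miR-486, miR-150-5p, miR-151-3p, miR-30b-5p, miR-30d-5p, miR-30e-3p, miR-320-3p, miR-328a-3p, miR-423-3p, miR-455-5p and miR-99a-5p were not used here.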

Additional observations from a re-analysis of the deposited data

Results flagged for a closer look

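In each group of 5 vehicle libraries, the gap between the highest or lowest library and its neighbour was divided by the whole range, and a value above the 95% critical value of Dixon's test for 5 samples marks a library that stands apart. This picked out 5 of 94 values, and chance picks out about 1 in 20 groups. miR-143-3p was highest in the MDA vehicle (0.872), at 9.58% of reads against 1.25% to 2.65% in the other 4. miR-200a-3p was highest in the APAP vehicle (0.773). miR-181b-5p (0.7502) and miR-27a-3p (0.8202) were highest in the TAA vehicle. The library total was highest in the CCl4/DEX vehicle (0.829), at 225741 reads. Causes were not tested.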

How the results depend on the processing

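Counts of calls by size moved with the scaling. At 24 h against MDA vehicle, higher calls were 5 with total counts and 16 with totals that leave out miR-122-5p. Lower calls were 53 with total counts, 15 with TMM over the MDA table, 17 with the authors' size factors, 31 without miR-122-5p in the totals, 4 at a minimum of 50 reads and 18 with none. At 48 h, higher calls were 11 with total counts, and lower calls were 43 with total counts and 12 at 50 reads. For 48 h against 24 h, higher calls were 17 with total counts, 3 with TMM over the MDA table, 9 with the authors' factors and 9 without miR-122-5p; lower calls were 0, 7, 2 and 5 under these, and 6 at 50 reads. By edgeR at 24 h, total counts gave 5 higher and 76 lower, DESeq2 gave 11 lower and the 3 carboxymethylcellulose vehicles gave 2 lower. Leaving out a vehicle gave 22 to 32 higher and 2 to 17 lower, with the 32 and 17 without the TAA vehicle and the 2 without the ANIT vehicle. By edgeR at 48 h, total counts gave 11 higher and 60 lower, no filter 19 lower and the 3 carboxymethylcellulose vehicles 3 lower. Leaving out a vehicle gave 18 to 26 higher and 4 to 28 lower, with 28 lower without the TAA vehicle, 5 without APAP and 4 without ANIT. For 48 h against 24 h, lower calls were 0 to 2, with 2 without the TAA vehicle, and higher calls 0. For MDA against ANIT, alternatives added after seeing the data gave 4 higher with DESeq2 and 17 lower with total counts and 2 with DESeq2 at 24 h, with 0 to 1 higher and 1 to 3 lower when a vehicle was left out, the 1 and 3 without TAA. At 48 h they gave 1 higher with total counts and 0 to 1 without a vehicle, the 1 without TAA. Total counts reversed 10 of the 24 h changes, to −0.48 for let-7d-3p, −0.60 for miR-10a-5p, −0.37 for miR-28-3p, −0.33 for miR-30d-5p, −0.71 for miR-30e-3p, −0.11 for miR-3473, −0.38 for miR-375-3p, −0.57 for miR-423-3p, −0.052 for miR-674-3p and −0.79 for miR-99a-5p. The cause was not tested. No paired analysis was possible because each MDA group has 1 library and the numbered ANIT samples share 1 column. The 14176 reads of the MDA vehicle limit what can be seen of rare miRNAs, 38 of the 85 having under 20 reads there.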
